A study of Mus musculus with 4 samples.

Results

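The loci described here are assembled, spliced transcripts of mouse heart that had no counterpart in the UCSC gene models but lay close to a gene that had one. A locus was a member when none of its transcript models carried a UCSC identifier, all of them were classed as intergenic by the assembler, at least 1 had 2 or more exons, and its span lay within 10 kb of the span of an annotated locus, on either strand of the same mm9 chromosome. Annotated here means a locus with a UCSC model. Of 35299 loci in the table, 524 met the rule, out of 1280 spliced intergenic loci, after 1 locus that the rule names was left out. The members were compared with 755 spliced intergenic loci farther away, 4416 single-exon intergenic loci within 10 kb and 26078 annotated loci. The members nearest to the limit had gaps of 9938, 9966 and 9976 bases, and the nearest loci beyond it had gaps of 10033, 10037 and 10038 bases.

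The series held 1 group of 4 hearts, named Sham, and no second group, so levels and their spread are described and no treatment effect can be given. The mice were C57BL/6J, 12 weeks old, and the tissue was taken 2 weeks after a sham operation, at the site that would have lain beside an infarct. All labels of the 4 samples name the sham treatment, except that the free-text description of replicate 4 omits the word. Poly(A)-selected RNA was sequenced, and the libraries 3RL, 7LR, 8R and 12RL are known to belong to the group but are not tied to replicate numbers. Their depth ran from 108345923 reads in 12RL to 160670654 in 8R. Heart muscle markers were among the highest annotated loci: Actc1, the cardiac actin, stood at 999211 ± 163869 normalised reads per kb of exon and Tnnt2, cardiac troponin T, at 87073 ± 8942 (SD, n = 4), while the hepatocyte gene Alb stood at 0.14 ± 0.281 and the skeletal myosin Myh4 was listed at 0. The neuronal gene Syn1 stood at 20.2 ± 4.39, near the median of annotated loci. Markers of endothelium, fibroblasts, smooth muscle and leukocytes were present between 165 ± 23.4 (Ptprc) and 5302 ± 594 (Pecam1). In such bulk tissue, fewer cells of a type and less RNA per cell cannot be told apart.

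Many mammalian promoters start transcription in both directions, and long noncoding RNAs often begin head to head with a coding gene. RNA polymerase can also continue beyond the polyadenylation site of a gene, and models built from short reads may hold only a piece of a transcription unit. Loci next to genes are therefore commonly sorted by strand and side: an opposite-strand locus upstream of a gene is in the head-to-head, or divergent, arrangement, an opposite-strand locus downstream is tail to tail, and same-strand loci lie before or after the gene in its own direction of reading.

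The promoters of 3 annotated neighbours are shown because each has a divergent member within a short distance: Med26, a subunit of the Mediator complex, Ankrd11, a chromatin regulator, and Zfp592, a zinc finger protein. Each is the 250 bases before the outermost RefSeq start of the gene on GRCm38.p6, read 5′ to 3′ along the gene, with CpG dinucleotides in capitals. They were chosen after the values of their members had been seen. The windows lie at chr8:72548311-72548560 on the minus strand for Med26, chr8:123042285-123042534 on the minus strand for Ankrd11 and chr7:80993434-80993683 on the plus strand for Zfp592.
Med26: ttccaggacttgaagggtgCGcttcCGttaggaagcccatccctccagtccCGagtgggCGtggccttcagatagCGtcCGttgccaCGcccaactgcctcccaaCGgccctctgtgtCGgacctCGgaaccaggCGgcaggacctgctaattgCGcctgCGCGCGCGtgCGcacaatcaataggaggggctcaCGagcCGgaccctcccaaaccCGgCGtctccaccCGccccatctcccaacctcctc
Ankrd11: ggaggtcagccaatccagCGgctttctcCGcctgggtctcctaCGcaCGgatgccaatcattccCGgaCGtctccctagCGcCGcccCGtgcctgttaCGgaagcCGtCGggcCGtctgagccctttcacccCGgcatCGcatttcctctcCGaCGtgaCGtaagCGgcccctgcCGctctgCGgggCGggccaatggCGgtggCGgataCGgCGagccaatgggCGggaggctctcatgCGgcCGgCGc
Zfp592: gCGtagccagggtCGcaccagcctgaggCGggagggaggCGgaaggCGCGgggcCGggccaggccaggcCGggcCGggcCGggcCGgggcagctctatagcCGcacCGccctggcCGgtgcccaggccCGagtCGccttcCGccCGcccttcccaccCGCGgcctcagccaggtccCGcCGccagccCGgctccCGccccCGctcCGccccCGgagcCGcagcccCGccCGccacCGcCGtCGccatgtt
They hold 22, 30 and 33 CpG dinucleotides, each contains the motif GGGCGG on 1 strand or the other, and none contains TATAAA. The gaps of the members were measured on mm9, at 141, 99 and 77 bases, and cannot be placed on these windows of a later build.

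The most common arrangement of the members was divergent. Of the 524, 190 lay on the opposite strand upstream of their nearest annotated locus, 95 on the same strand downstream, 87 on the same strand upstream and 83 on the opposite strand downstream. The spans of the other 69 overlapped an annotated span, 51 of them on the opposite strand and 18 on the same strand, and in 40 of these, all on the opposite strand, exons overlapped as well. The members lay beside 488 annotated loci on 20 chromosomes. Of all members, 71 shared their nearest annotated locus with another member and 137 had more than 1 annotated locus within 10 kb.

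The excess of divergent members lay at short gaps. Among the 195 members with a gap of up to 1 kb, 112 were divergent, or 57.4% (95% Wilson interval 50.4% to 64.2%), against 17.4% on the same strand downstream, 16.4% on the same strand upstream and 8.72% on the opposite strand downstream. At gaps of 1 to 5 kb the divergent share was 33.3% (26.2% to 41.3%), and at 5 to 10 kb it was 25.7% (18.5% to 34.4%). Among 424 spliced intergenic loci 10 to 50 kb from their nearest annotated locus, 107 were divergent, or 25.2% (21.3% to 29.6%), and the other 3 arrangements had shares of 24.3% to 26.2%. The divergent share was thus highest at gaps up to 1 kb, which is a description with no test. These intervals cover counting error only, and loci that share a neighbour are not independent. Members had to be classed as intergenic, and whether this keeps both strands equally at short gaps was not tested. Within 1 strand, at gaps up to 1 kb, 112 opposite-strand members lay upstream and 17 downstream. On the same strand 32 lay upstream and 34 downstream.

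**Figure D1:**
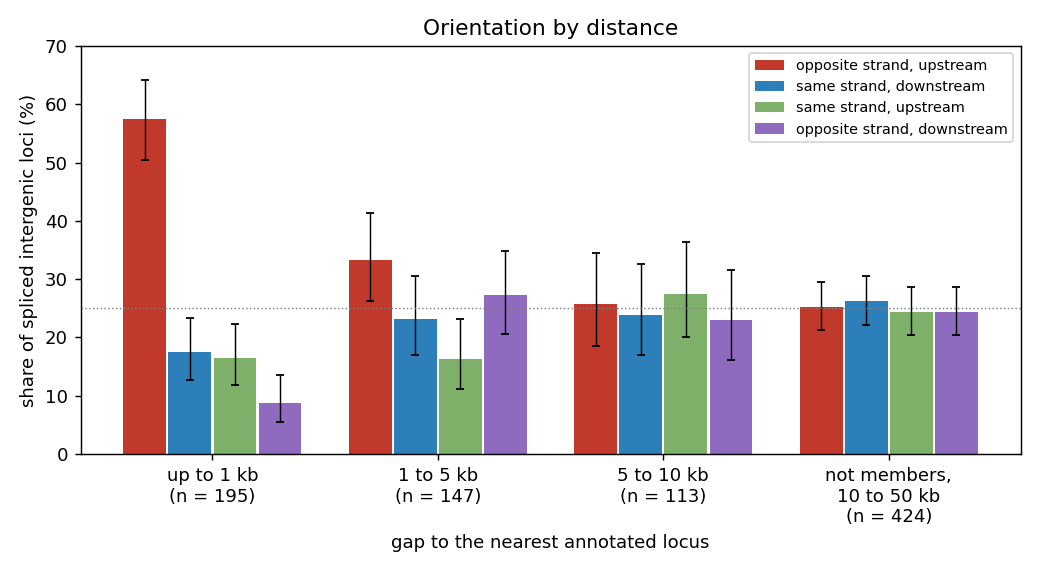
Share of spliced intergenic loci in each of the 4 orientations (percent, bars from 0), by gap to the nearest annotated locus, with 95% Wilson intervals as error bars; the dotted line marks equal shares, and the last group holds loci 10 to 50 kb away, which are not members. The divergent bar falls from 57.4% at gaps up to 1 kb to 25.7% at 5 to 10 kb, next to 25.2% for the loci farther away.

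Many divergent members had gaps below 250 bases. Of the 190, 39 had a gap of up to 100 bases, 45 of 100 to 250, 16 of 250 to 500 and 12 of 500 to 1000 bases, and the other 78 were spread over 1 to 10 kb. Their median gap was 370 bases. The medians of the other arrangements were 2252 bases for the same strand downstream, 3277 for the same strand upstream and 3359 for the opposite strand downstream.

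**Figure D2:**
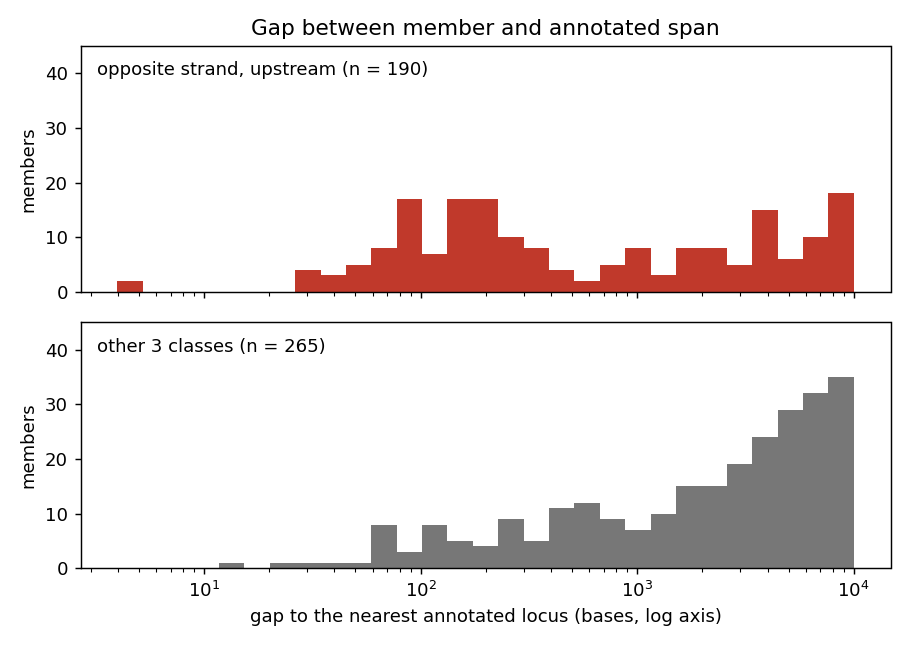
Number of members by gap to the nearest annotated span (bases, log axis), for the 190 divergent members in the upper panel and the 265 members of the other 3 non-overlapping arrangements in the lower panel. The divergent members have a mound of gaps around 100 to 250 bases besides those of several kb, while the others are most numerous at gaps of several kb.

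The promoters of genes with a close divergent member had a higher median number of CpG dinucleotides than those of the other sets described here. Of the 112 neighbours of divergent members with gaps up to 1 kb, 74 had a window in the RefSeq promoter table, and these held a median of 19.5 CpG dinucleotides in 250 bases, with quartiles of 13.0 and 26.0. The 215 matched neighbours of members in the other classes had a median of 13.0, and 10254 other annotated loci whose normalised read counts averaged 10 or more had a median of 15.0. Of the 74, 63 windows (85.1%) held 10 or more CpG, against 59.5% and 69.9% in those sets. GGGCGG, searched on both strands, was in 64.9% of the 74 windows, 47.9% of the 215 and 57.3% of the 10254, and in 33.0% of all 27025 windows of the table. TATAAA, also on both strands, was in 8.11%, 5.12%, 6.82% and 13.0% of the same sets, and CCAAT in 39.2%, 37.2%, 35.5% and 34.5%. A match is a description of letters in the window and no sign of binding. Sets for this comparison were chosen after seeing the data, and no test was made.

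Models of the members were short in exon number. Of the 524, 309 (59.0%) had no model with more than 2 exons, against 47.3% of the far spliced loci, and 289 had several models. The 976 spliced models of the members had a median of 2 exons, a spliced length of 2331 bases and an intron of 1324 bases. For the far loci these medians were 3 exons, 2408 bases and 2032 bases, and for UCSC models 7 exons, 2302 bases and 1398 bases. Spliced length was thus close to that of annotated transcripts, with fewer exons. In 17.0% of members the merged exons covered 95% or more of the span, compared with 13.1% of the far loci. A member needs 2 or more exons in only 1 model, so another of its models may hold no intron.

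Some members matched a gene of the later GENCODE M21 annotation by structure. Here a match means exactly equal lengths of an intron, an exon and the next intron on the same chromosome and strand, or, for other members, of 1 intron of 100 bases or more in a gene within 50 kb of the gene matched by the neighbour. By these rules 139 of 524 (26.5%) matched: 53 a protein-coding gene, 79 a noncoding gene and 7 a pseudogene, leaving 385 with no match. With the strand flipped as a check, 0 of 215 members matched by the first rule and 3 of 404 by the second, against 68 and 71 on the true strand. Names below rest on equal lengths and not on identifiers, so single names may be wrong.

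Noncoding and coding matches were spread differently over the arrangements. Of the 79 members with a noncoding match, 41 were divergent, 12 were on the same strand downstream, 10 on the opposite strand downstream, 7 on the same strand upstream and 9 overlapped. Of the 53 with a coding match, 18 were on the same strand downstream, 16 on the opposite strand downstream, 10 on the same strand upstream, 6 divergent and 3 overlapping. Members with a coding match had a median of 4 exons and those without a match 2. In 11 members the matched gene was also that of the nearest annotated locus, 7 of them on the same strand downstream and 4 upstream, so by this match they are a stretch of that gene outside its UCSC span. These included the cadherin gene Cdh16, the histamine receptor gene Hrh2, the dynein gene Dnah12 and Notch1. Of the 11, 7 matched by 1 intron alone, Cdh16, Hrh2 and Notch1 among them, in a search limited to genes near the neighbour. Levels of the 2 parts could differ in either direction. The member that matched Cdh16 stood at 200 ± 46.4 reads per kb against 14.4 ± 2.07 for the annotated part. The member that matched Notch1 had a mean normalised read count of 2.1 ± 2.5 against 8426 ± 1205 for the annotated part.

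Most members were present at low levels. A normalised read count is the authors' count divided by the size factor of its library. Of the 524 members, 384 (73.3%) had a mean of 10 or more, while 53.6% of all loci did. Reads were found in all 4 libraries for 472 members and in none for 18. The members together took 0.0562% ± 0.00484 of all counts (SD, n = 4), and the 10 highest of them took 42.1% ± 1.51 of that.

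Per kb of merged exon, the median member stood at 12.2 ± 0.421 normalised reads (SD over 4 libraries). The medians were 13.9 ± 0.538 for divergent members, 12.9 ± 1.19 for the same strand downstream, 11.3 ± 0.955 for the same strand upstream and 13.1 ± 0.779 for the opposite strand downstream. Members overlapping a locus on the opposite strand had a median of 4.58 ± 0.627, below those 4 classes in every library, and 11 of these 51 were at 0 in all libraries. No source used here gives the strandedness of the libraries or the counting of overlapping loci, and their part in this was not tested.

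Differences in level between classes were tested as the difference of class medians of log2(normalised reads per kb + 1) in each library, by an exact sign-flip test, two-sided, over the 4 libraries, whose smallest possible p is 0.13 after rounding. Such comparisons numbered 10, and no adjusted p was below 0.179, so none could pass a threshold of 0.05 in a design of this size. The p-values measure only the spread between these 4 hearts. Same-strand members exceeded opposite-strand members by 0.06 ± 0.13 on the log2 scale, higher in 3 of 4 libraries (exact p = 0.375), which is within the spread and changed sign under 3 alternatives, to -0.05 when the highest annotated locus set the class. Downstream members differed from upstream members by -0.02 ± 0.11 (exact p = 0.625), which became 0.39 without division by length. Divergent members exceeded all other members by 0.28 ± 0.14, higher in 4 of 4 libraries (exact p = 0.13), by 0.13 once members with overlapping exons were left out, and by 0.02 without division by length.

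Over all members and per kb, the level near an annotated locus differed from that farther off by no more than the spread between libraries. All members with a gap of up to 2 kb, overlapping ones included, exceeded those with a gap over 5 kb by 0.08 ± 0.08, higher in 3 of 4 libraries (exact p = 0.25). This depended on the members and the scale. Without members whose exons overlapped the excess was 0.26 ± 0.05, more than the spread. Over all members the difference was -0.16 ± 0.06 without division by length. Within the same strand downstream it was 0.54 ± 0.05, within the divergent class 0.33 ± 0.19 and within the same strand upstream 0.21 ± 0.07, each higher in 4 of 4 libraries. Within the opposite strand downstream it was 0.10 ± 0.25, higher in 2 of 4 libraries. Without division by length the values were 1.20 ± 0.21, -0.08 ± 0.23, 0.38 ± 0.51 and -1.17 ± 0.26 in the same order, so the direction within the divergent class and the opposite strand downstream changed with the scale. These values within classes were chosen after seeing the data and are a description, outside the 10 comparisons and with no test.

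**Figure D3:**
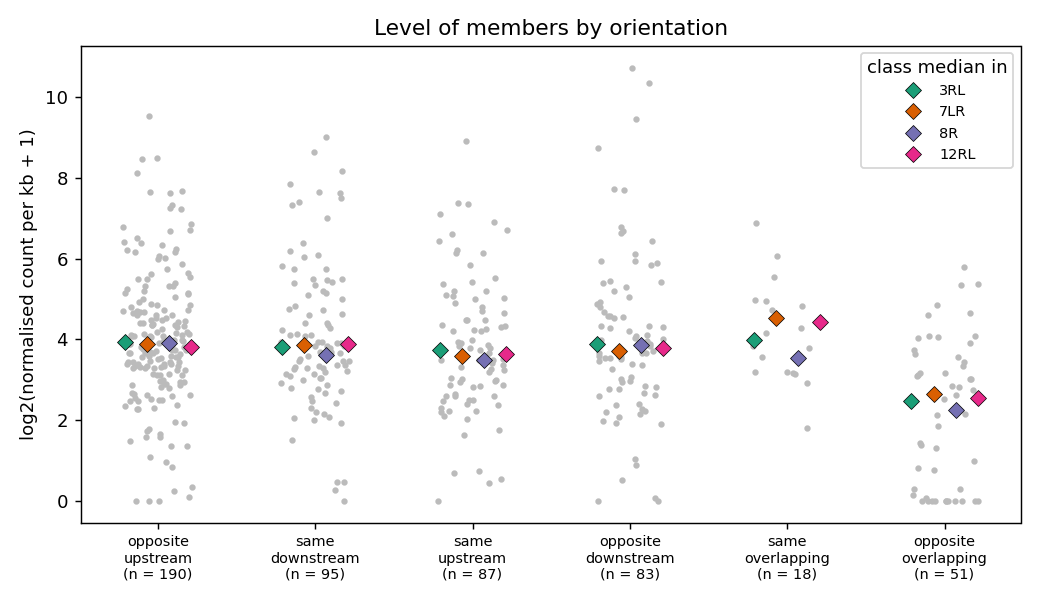
Level of each member as log2(normalised reads per kb of merged exon + 1), averaged over 4 libraries (grey points), in the 6 arrangements, with the class median in each library as a coloured diamond. Medians of the 4 non-overlapping classes lie close together, and those of opposite-strand overlapping members lie lowest in each library.

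Members were also set beside other kinds of loci. They stood below the far spliced loci, whose median was 14.6 ± 1.02 reads per kb, by 0.24 ± 0.10 on the log2 scale in 4 of 4 libraries (exact p = 0.13), a gap of 0.14 without exon-overlapping members. They stood above the close single-exon loci, with a median of 5.87 ± 0.771, by 0.95 ± 0.15 in 4 of 4 libraries (exact p = 0.13). A model of 2 or more exons has to be assembled from reads, so membership may itself favour higher loci, which was not tested. Members with a coding match exceeded members without a match by 0.47 ± 0.14, in 4 of 4 libraries (exact p = 0.13), and by 1.22 when limited to means of at least 10. Their median exon number also differed, at 4 against 2, and its part in this was not tested. Members with a noncoding match exceeded members without a match by 0.31 ± 0.08, also in 4 of 4 libraries (exact p = 0.13), and by 0.18 ± 0.16 when limited to means of at least 10 (exact p = 0.25).

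The genes beside the members were well expressed. The 488 nearest annotated loci had a median of 354 ± 6.76 normalised reads per kb, against 21.7 ± 1.00 for all annotated loci, a log2 difference from the other annotated loci of 4.15 ± 0.07 in 4 of 4 libraries (exact p = 0.13). Of all annotated loci, 7330 were at 0 in every library, and with both sets limited to means of at least 10 the difference was 0.25. Member by member, the member was lower than its neighbour by a median of 4.70 ± 0.12 on the log2 scale (exact p = 0.13). Of the 513 members whose neighbour had reads, 59 exceeded it per kb, and 11 more lay beside a neighbour listed at 0. The median ratio of member to neighbour was 0.0341, with 0.0288 for divergent members, 0.0552 for the same strand downstream, 0.0484 for the same strand upstream and 0.0560 for the opposite strand downstream. Across the 524 members, Spearman's rho between the levels of member and neighbour was 0.135. Within the classes it was 0.304 for the divergent members, 0.0355 for the same strand downstream, 0.146 for the same strand upstream and 0.128 for the opposite strand downstream. These describe loci measured in the same 4 libraries and are given with no p.

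**Figure D4:**
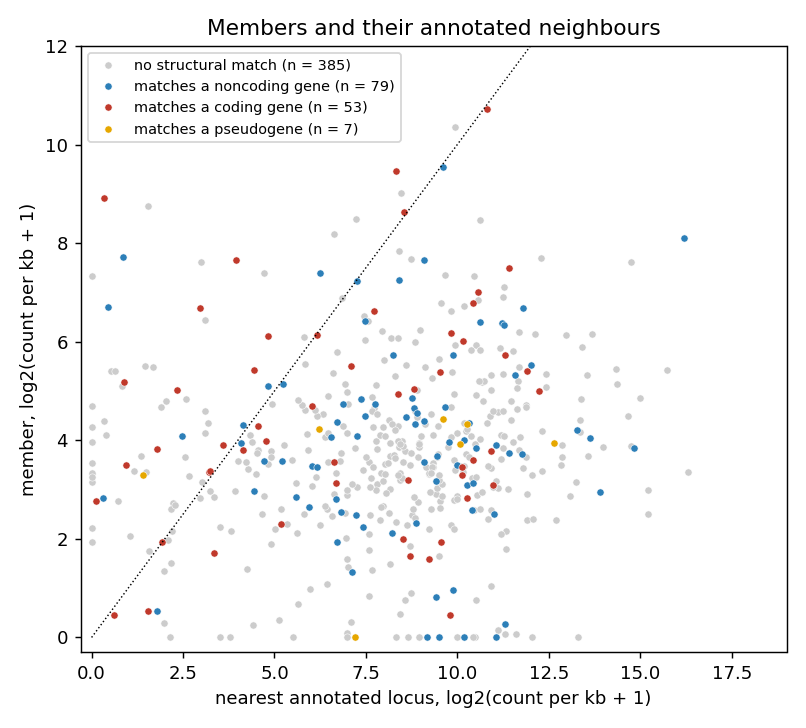
Level of each member against that of its nearest annotated locus, both as log2(normalised reads per kb + 1) averaged over 4 libraries, coloured by structural match; the dotted line marks equal levels. Most points lie below the line, with a median ratio of 0.0341, and the points above it include several members with a coding match.

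The member with the highest level was XLOC_006957, at chr12:109441803-109513640 on the minus strand, with 7 exons. Its structure matched Ccdc85c, a coiled-coil protein of cell junctions, and it lay tail to tail with Ccnk, the gene of cyclin K, 235 bases away. Its normalised read counts were 7450 (3RL), 6601 (7LR), 7891 (8R) and 7538 (12RL). The 4 hearts lay close together, at 7370 ± 547, or 1694 reads per kb. Ccnk itself had 4607 ± 502, and per kb the member stood at 0.936 of it.

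The next members per kb in the tail-to-tail class were 1 without a match and 1 that matched a coding gene. XLOC_009737, at chr14:51508258-51517386, matched Klhl33, a kelch-like gene, and had counts of 6379, 5830, 5624 and 7024 in 3RL, 7LR, 8R and 12RL. Its library 12RL was highest and 8R lowest, with a mean of 6214 ± 627, and per kb it stood 2.22 times above its neighbour Gm26782. XLOC_004541, at chr11:107063165-107067476, matched no gene and lay 1729 bases from Pitpnc1, a phosphatidylinositol transfer protein, on the other strand. Its counts were 1283, 1170, 1639 and 1389, highest in 8R. Because its exons sum to only 1049 bases, this was 1306 reads per kb, the second highest of these named members, and 1.34 times Pitpnc1 per kb.

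Among divergent members, the one with the highest level lay 169 bases from Smad7, the inhibitory SMAD of TGF-beta signalling. This member, XLOC_015277, spanned chr18:75518298-75526849 on the minus strand with up to 7 exons, and 1 of its introns equalled one of the noncoding gene Gm20544. Its counts were 2883 (3RL), 3017 (7LR), 2894 (8R) and 2983 (12RL). They varied little, at 2944 ± 65.9, a CV of 2.24%. Smad7 ranged wider, with 2928, 3464, 4413 and 3024 in the same order, and was highest in 8R, while the member was highest in 7LR. The member stood at 0.955 ± 0.174 of Smad7 per kb.

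The next divergent members per kb had no match. XLOC_021715, at chr4:119963797-119976500, had counts of 1220, 979, 1137 and 937 in 3RL, 7LR, 8R and 12RL and lay 3930 bases from an unnamed annotated locus. XLOC_030879, at chr8:125566282-125570569, lay 99 bases from Ankrd11, whose promoter is printed above, and had counts of 1462, 1331, 1681 and 1421. Ankrd11 had 21500 ± 3253 reads, and per kb the member stood at 0.224 of it. In both members the highest library exceeded the lowest by less than 1.5 times.

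Another 5 divergent members of high count are given here, chosen after their values were seen. XLOC_030546, 141 bases from Med26, had counts of 2691 (3RL), 3009 (7LR), 1859 (8R) and 3593 (12RL), a mean of 2788 ± 724. XLOC_033354, 46 bases from Adamts7, a secreted metalloprotease, had counts of 2044, 1556, 919 and 2589, a mean of 1777 ± 711. In both, 12RL was highest and 8R lowest. The others were steadier. XLOC_003788, 58 bases from an unnamed annotated locus, had counts of 1456, 1383, 1647 and 1510, a mean of 1499 ± 112. XLOC_029352, 77 bases from Zfp592, had 1093, 1232, 1253 and 1298, and XLOC_018321, 266 bases from the RNA-binding protein gene Hnrnpa3, had 1173, 1509, 1637 and 1562. Hnrnpa3 had 33920 ± 3769 reads, so per kb this member stood at only 0.0158 of its neighbour. In XLOC_029352 the merged exons covered 16384 of 16518 bases, and in the other members of this paragraph they filled the whole span. In those other members the longest model was also as long as the span, so that model held no intron, and only other models were spliced. The high counts thus came with long merged exons. Per kb, in the order given, the members stood at 205, 109, 115, 74.4 and 70.2 reads.

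Downstream on the same strand, the member with the highest count was XLOC_014917, at chr18:11003782-11022372, 9359 bases beyond Gata6os, an antisense locus named after the cardiac transcription factor gene Gata6. Its counts were 4710 (3RL), 5532 (7LR), 5559 (8R) and 5651 (12RL). Library 3RL stood below the other 3, which lay close together. Its mean was 5363 ± 438, and per kb it stood 2.92 times above Gata6os. Its longest model held no intron, and its merged exons filled the whole span of 18591 bases. Per kb, at 288, it was exceeded in its class by XLOC_021944 beside Zfp991, with 518 reads per kb, and by XLOC_028733, with 395. The counts of XLOC_021944 were 560, 656, 689 and 590. The Zfp991 locus belongs to a family of near-identical zinc finger genes, so reads of that pair may be split between copies. XLOC_028733 matched Sbk2 and lay 668 bases beyond Sbk3, both SH3-binding kinase genes, with counts of 1025, 997, 952 and 1160, and it stood at 1.06 of Sbk3 per kb.

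Upstream on the same strand, XLOC_007580, at chr13:41701272-41736945, matched the membrane protein gene Tmem170b and was highest, with counts of 3185, 3915, 3439 and 4207 in 3RL, 7LR, 8R and 12RL. Library 12RL was highest and 3RL lowest, and its neighbour Gm5082 had a mean below 1 read, so no ratio is given. XLOC_021898, 1369 bases before Cplane2, a gene of ciliogenesis, had counts of 156, 189, 131 and 112. It exceeded Cplane2, at 46.3 ± 9.1 reads, by 6.63 times per kb. XLOC_009053, 9179 bases before Wapl, which releases cohesin from chromatin, had 96.7, 67.2, 107 and 67.8 reads over 521 bases of exon, and stood at 0.20 of Wapl per kb.

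The largest ratios to a neighbour with a mean of 10 or more belonged to members beside loci of low count in these hearts. A choice by ratio favours such neighbours, so their low counts are no separate result. XLOC_011292 matched Fignl2, a fidgetin-like ATPase, by 1 intron alone and lay tail to tail with Scn8a, a voltage-gated sodium channel gene. Its counts were 291, 559, 233 and 470, against 10.4 ± 5.7 for Scn8a, a ratio of 41.2 ± 11.2 per kb. XLOC_026062, beyond Zfp239 with 19.7 ± 8.38 reads, had counts of 258, 202, 280 and 200 and a ratio of 28.0 ± 12.1. XLOC_030402 matched Gm19410 and lay beside an unnamed locus with 12.7 ± 8.83 reads. It had a ratio of 14.8 ± 9.86, with counts of 485, 428, 543 and 353.

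That last member also had the most exons, 20 in 1 model. The next were XLOC_010488 with 18, which lay 75 bases beyond Maf1, a repressor of RNA polymerase III, and matched Gm35339, and XLOC_011680 with 16, which matched Sec14l5 and lay tail to tail with Nagpa. The counts of XLOC_010488 were 242, 337, 283 and 396, against 9826 ± 594 for Maf1. Those of XLOC_011680 were 912, 668, 681 and 555, highest in 3RL.

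Among members with a mean count of at least 10, the smallest gaps were 5, 24 and 30 bases. XLOC_020445 lay 5 bases from Map9, a microtubule-associated protein gene, in the divergent arrangement, with counts of 44.2, 27.3, 29.6 and 23.7. XLOC_028555 ended 24 bases before an annotated locus on the same strand and had 60.9, 53.5, 52.3 and 44.1 reads. That locus is named here for Fbxl19, which encodes a CpG-binding F-box protein, but its models matched 5 genes. Its 10964 ± 386 reads are therefore not those of Fbxl19 alone. XLOC_012215 lay divergent to Ccdc14 at 30 bases, with 119, 153, 133 and 137 reads. All 3 stood below their neighbours, at 0.284, 0.0341 and 0.277 per kb.

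**Figure D5:**
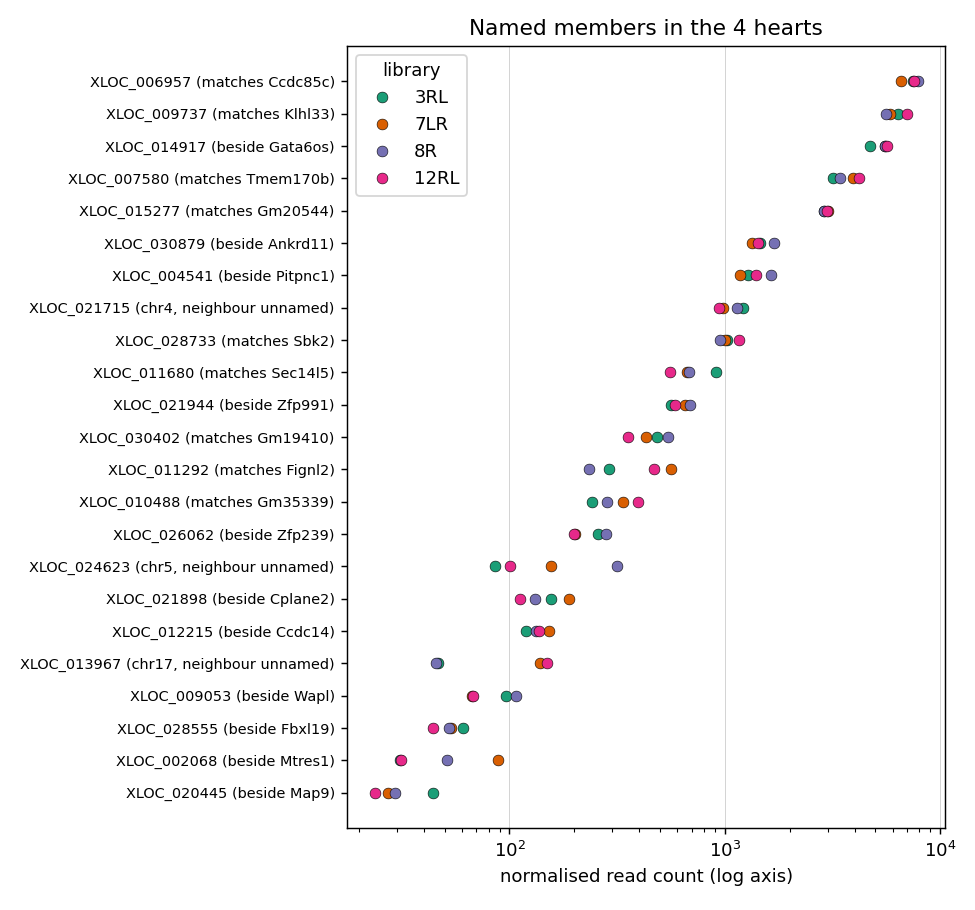
Normalised read count (log axis) of the 23 members named by rule, 1 point per library, ordered by mean and marked with the matched gene or, where there is none, the neighbour. Values run from 23.7 for the lowest library of the member beside Map9 to 7891 for the highest of the member that matched Ccdc85c, and most members keep the 4 hearts within a narrow range.

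After the member beside Smad7, 3 others of high count that matched noncoding genes are described here, chosen after their values were seen. XLOC_027818, which matched Gm33989, had counts of 2749, 3210, 2573 and 3470 and lay beyond Zfp619 on the same strand. XLOC_011806, which matched 4632428C04Rik, had 1369, 1483, 1262 and 1372. XLOC_006274 matched Gm35041 by 1 intron alone and lay 9627 bases from Max, the partner of the Myc proteins. Counts of XLOC_006274 ranged from 358 in 3RL to 1191 in 7LR. The unmatched member with the highest count, also chosen after its values were seen, was XLOC_025783, at chr6:51278899-51341418, with counts of 6085, 6604, 5240 and 4664, highest in 7LR and lowest in 12RL. Per kb it stood at 429, below the 1306 of the unmatched XLOC_004541. Members of high count thus occurred with and without a match.

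A small number of members lay beside genes on a list of transcription factors of heart development, which also held the cofactor Zfpm1 and the inhibitory Smad7. Of 38 genes on this list, written with earlier results known, 34 were matched to a locus, and 4 of these had a member nearest to them. Over all annotated loci, 488 of 26078 were nearest to a member. Among annotated loci with a mean of 10 or more, 444 of 14954 were. Smad7 is given above. XLOC_030868, upstream of Zfpm1, a cofactor of GATA factors, had counts of 859, 1426, 1045 and 1145. XLOC_006623, divergent to the homeobox gene Meox2 at 1782 bases, had 923, 616, 535 and 724, highest in 3RL, as was Meox2 with 2853. XLOC_032014, divergent to Tbx20, a T-box factor of the heart, at 1364 bases, had only 21.5, 34.2, 26.1 and 29.96 reads, while Tbx20 had 14351 ± 647.

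Members varied between hearts about as much as far intergenic loci did. With loci limited to means of at least 50, the CV had a median of 19.2% in 189 members, 19.1% in far spliced loci, 23.2% in close single-exon loci and 10.05% in annotated loci, whose counts were higher. A CV above 50% was found in 4 of 189 members (2.12%), and in 1.38% of all loci with such means. It was found in 4.18% of far spliced, 9.51% of close single-exon and 0.838% of annotated loci. By rule the 3 highest were named. XLOC_024623, tail to tail with an unnamed locus, had counts of 85.9 (3RL), 156 (7LR), 316 (8R) and 101 (12RL), a CV of 63.9%. Its level in 8R was above the other 3 libraries. XLOC_013967, divergent at 207 bases, had 46.6, 139, 45.5 and 150, high in 7LR and 12RL, a CV of 59.8%. XLOC_002068, tail to tail with Mtres1, a gene of mitochondrial transcription, had 31.0, 88.8, 51.2 and 31.5, a CV of 53.6%. The fourth, XLOC_032915, is added after its values were seen and lay 211 bases beyond Zbtb16, a zinc finger transcription factor gene, with counts of 332, 1528, 885 and 949, lowest in 3RL and highest in 7LR, while Zbtb16 had 25586 ± 10897.

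The library with the highest value was shared by member and neighbour about as often as elsewhere. Of 165 members that had a mean of 50 or more beside a neighbour that also did, 49 (29.7%, Wilson interval 23.3% to 37.1%) had their highest value in the same library as the neighbour. The share was 26.8% for far spliced loci and 27.8% for close single-exon loci. Among 189 members 7LR and 12RL were each highest in 55, 8R in 50 and 3RL in 29, whereas over all loci with such means 8R was highest in 38.6%. The low share of 8R was not particular to members. In far spliced loci 8R was highest in 27.8% and 3RL in 16.1%, against 26.5% and 15.3% of members. Far spliced loci had 7LR highest in 41.2% and 12RL in 14.9%, against 29.1% each in members. By Dixon's ratio, 1 library stood apart upward in 5 of the 189 members and downward in 4, against 3.15% and 1.45% of all loci.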

How the data were processed

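The 4 libraries of 1 group were analysed from 2 deposited files. The table holds signal values that the authors made, per the values themselves, by dividing read counts per locus by 1 size factor per library. All values (100%) were whole multiples of 1 step within 0.001, so whole reads were recovered; they give the depths of 140554089 (3RL), 142524825 (7LR), 160670654 (8R) and 108345923 (12RL). The second deposited file holds the exon positions of transcript models on mm9. Per the submitters' processing notes reads were handled with HTSeq 0.5.4p2, DESeq, TopHat2 2.0.5 and Cufflinks 2.0.2. Strandedness, counting mode and the libraries assembled are named in no source used here.

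Gap is the number of bases between spans, and upstream and downstream follow the strand of the nearest annotated locus. Levels were divided by merged exon length and taken as log2(value per kb + 1), which understates differences of low loci. Class medians were differenced within each library and tested by an exact two-sided sign-flip test, with Benjamini-Hochberg adjustment over 10 comparisons, 3 of them added after seeing the data (by coding match, by noncoding match, divergent against the rest). Near and distant members within each class were described without a test. With 1 group no test between groups could be made.

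The files carry no gene symbols. Members and neighbours were matched to GENCODE M21 on GRCm38 by equal intron and exon lengths, with no coordinate converted. This rule was set after the files were seen and widened from whole chains to an intron, exon and intron, or to 1 intron. Of 18444 annotated loci with 2 or more introns, 17813 matched, 11 with the strand flipped, and 432 of the 488 neighbours did, 2 with the strand flipped. A name was kept where the RefSeq table held it as a symbol or as a synonym of 1 gene, and 13 matched members have none. An annotated locus could match more than 1 gene and then took the name with the most matching structures. The locus named for Fbxl19 matched 5 genes, and those named for Zfp991, Nagpa and Zfpm1 matched 2 each. Counts and ratios of such loci are not those of the named gene alone.

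The members, the marker and transcription factor lists and the promoter sets were chosen with earlier results of these data known. Named members were, in each non-overlapping class, the 3 highest per kb among those with a mean of 10 or more; the 3 with the highest CV and the 3 with the highest ratio to a neighbour with a mean of 10 or more, among those with a mean of 50 or more; the 3 with most exons; and the 3 with the smallest gap and a mean of 10 or more. Others are marked in the text as chosen after their values were seen. Alternatives were other pseudocounts, minimum means, windows, lengths, scalings (TMM from edgeR 4.0.16 in R 4.3.3, equal totals), the highest annotated locus as neighbour, and leaving out each library. Steps were tested on simulated data and used Python 3.11.15, numpy 2.4.6, pandas 2.3.3 and scipy 1.17.1. Intervals cover counting error only.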

Additional observations from a re-analysis of the deposited data

Results flagged for a closer look

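For XLOC_014917, the member on chromosome 18 beyond Gata6os, library 3RL, with a normalised read count of 4710, stood apart below the other 3 libraries, which lay at 5532, 5559 and 5651. The gap between 3RL and the nearest of them was 0.874 of the whole range, above Dixon's 95% critical value for 4 values. Chance gives such a gap in about 1 of 20 sets of 4 values. Among all 189 members with a mean of 50 or more, 1 library stood apart upward in 5 and downward in 4. Of all 14424 loci with such means, 3.15% stood apart upward and 1.45% downward, so the members are not particular in this.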

How the results depend on the processing

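Of 152 alternatives, 143 left a result with its direction, a count or median within 1.5 times, or the share of shared highest libraries inside its Wilson interval; none of the 123 alternatives of the 10 level comparisons could pass a threshold of 0.05. The difference between same and opposite strand turned to -0.000999 with the length of the longest model, -0.0472 with the highest annotated locus and -0.10 without members whose exons overlapped an annotated locus (an alternative added after seeing the data). The difference between downstream and upstream turned to 0.39 without division by length and to 0.0299 without library 8R, in a range of -0.0630 to 0.0299 when each library was left out. The difference between near and distant members turned to -0.16 without division by length. The divergent members exceeded the others by 0.02 to 0.37, the difference from far spliced loci ran from -0.49 to -0.14 and that from the neighbours from -6.02 to -3.84. The excess over close single-exon loci ran from 0.48 to 1.73, that of coding matches over no match from 0.29 to 1.47, that of noncoding matches from 0.18 to 0.53, and that of neighbours over other annotated loci from 0.25 to 5.45. Detected members numbered 189 at a minimum mean of 50, by construction of the stricter limit. The share of members with the same highest library as their neighbour ran from 35.3% to 40.0% when each library was left out, 37.7% without 3RL and 40.0% without 7LR, since fewer libraries raise an equal share; far spliced loci ran from 32.6% to 39.1%. A window of 5 kb gave 411 members and 161 divergent ones, and 20 kb gave 693 and 237. No paired analysis was possible because the series holds 1 group and the library columns carry no replicate numbers. Depth limits the 140 members with a mean under 10, and the 4 hearts limit every level comparison.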
